A study of Homo sapiens with 4 samples.

Results

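Death receptors are cell surface proteins of the TNF receptor family that can start apoptosis from outside the cell. The 10 genes described here cover that pathway from the ligand to the first caspase: the TRAIL receptor genes TNFRSF10A, TNFRSF10B, TNFRSF10C and TNFRSF10D, the receptor genes FAS and TNFRSF1A, the ligand gene TNFSF10, the adaptor gene FADD, the initiator caspase gene CASP8 and its inhibitor gene CFLAR. They were chosen by gene identity from 22841 genes in the tables, and all 10 were present. PC-3M-luc cells, human prostate carcinoma cells with a luciferase reporter, were transfected with control RNAi or with RNAi against LSD1, the histone demethylase encoded by KDM1A. Cells of passages 17 to 20 were grown in medium with 10% serum, both groups received the same transfection reagent, and RNA was taken 72 h later. Each group held 2 libraries, labelled as biological replicates, so the p-values concern the spread between these libraries only. The edgeR fit draws that spread for each gene largely from all genes together, with 30.27 prior against 2 residual degrees of freedom. All 4 libraries come from 1 cell line, and the number and sequences of the RNAi molecules were not given in the sources used here. The series text speaks of a knockout, but the labels describe RNAi, and the comparison is treated as a knockdown.

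TRAIL, the product of TNFSF10, binds 2 receptors with an intracellular death domain, encoded by TNFRSF10A and TNFRSF10B, and 2 that lack a working one, encoded by TNFRSF10C and TNFRSF10D. A ligand-bound TRAIL receptor or FAS recruits the adaptor FADD, which brings in procaspase-8 to form the death-inducing signalling complex (DISC), and CFLAR resembles caspase-8 and holds back its activation there. TNF receptor 1, the product of TNFRSF1A, first assembles a ubiquitin and kinase complex that activates NF-kappaB, and can later also engage FADD and caspase-8. Many carcinoma cells carry these proteins and still resist death signals, so the balance of receptors, adaptor, caspase and inhibitor is commonly examined in them.

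Promoter sequence is shown for FAS, TNFRSF1A and FADD, 3 of the 4 members called lower. Sequence from the chromosome of TNFRSF10A, which also fell, and TNFRSF10B, which rose, was not used, so neither enters the motif comparison. The members that were not called do not enter it either. The sequences are RefSeq promoters of build GRCh38.p14, each from 250 bases before to 50 bases after a gene start, in the direction of transcription. For FAS, which has 3 starts in the table, the start nearest to that of the transcript counted was taken. The starts used lie 141 (FAS), 38 (TNFRSF1A) and 133 (FADD) nucleotides from the GENCODE start linked to the transcript counted. They lie at chr10:88990548-88990847 (FAS, plus strand), chr12:6342027-6342326 (TNFRSF1A, minus strand) and chr11:70203046-70203345 (FADD, plus strand). Capitals mark matches, on either strand, to 6 short motifs: the GC box GGGCGG, the CCAAT box CCAAT, the TATA box TATAAA, the AP-1 site TGACTCA, the E-box CACGTG and the CRE TGACGTCA.
FAS: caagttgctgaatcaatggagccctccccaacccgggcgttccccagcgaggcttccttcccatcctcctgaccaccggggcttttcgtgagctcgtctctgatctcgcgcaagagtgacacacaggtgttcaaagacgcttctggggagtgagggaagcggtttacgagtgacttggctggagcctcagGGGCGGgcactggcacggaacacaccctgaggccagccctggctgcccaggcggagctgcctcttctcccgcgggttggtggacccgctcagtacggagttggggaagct
TNFRSF1A: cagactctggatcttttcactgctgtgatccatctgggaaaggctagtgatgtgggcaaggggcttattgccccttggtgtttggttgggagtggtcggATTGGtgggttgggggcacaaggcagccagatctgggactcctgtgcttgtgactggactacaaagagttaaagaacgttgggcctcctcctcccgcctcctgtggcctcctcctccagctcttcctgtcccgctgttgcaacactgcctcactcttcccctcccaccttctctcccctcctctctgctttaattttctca
FADD: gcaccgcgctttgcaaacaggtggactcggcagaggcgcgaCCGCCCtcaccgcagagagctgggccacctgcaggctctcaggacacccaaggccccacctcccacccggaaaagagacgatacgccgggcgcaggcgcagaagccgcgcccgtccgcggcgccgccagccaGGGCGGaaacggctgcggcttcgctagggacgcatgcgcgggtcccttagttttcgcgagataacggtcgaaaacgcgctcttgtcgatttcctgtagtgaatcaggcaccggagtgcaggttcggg
FADD held 2 GC boxes, FAS held 1 and TNFRSF1A held 0, where 15786 of 35116 promoters of this length hold at least 1. TNFRSF1A held 1 CCAAT box, found in 34.6% of promoters, and no window held any of the other 4 motifs. The 3 windows thus share no motif of the 6. Their GC content was 63.0% for FAS, 55.7% for TNFRSF1A and 66.7% for FADD, against a median of 58.7%. A match is a run of letters and not a site that was measured.

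Depth was even, with 12040681 to 12831374 counts assigned to genes per library. A count of 3, used as the floor, corresponded to 0.232 to 0.247 CPM (counts scaled to the normalized library size), and floors cover counting error only. KDM1A checked the labels: its counts were 2920 and 2892 in control libraries and 218 and 234 after knockdown, a fall to 7.60% of control (edgeR adjusted p = 2.56e-24). Replicates were not one library deposited in duplicate, since their chi-square per gene was 4.96 in control and 4.29 in knockdown cells, where counting noise alone gives about 1. The epithelial genes KRT8, KRT18 and EPCAM were expressed, at a summed 508.4 and 518.6 CPM in control and 600.1 and 598.6 CPM in knockdown libraries. KRT8 and EPCAM rose 1.39-fold and 1.42-fold (edgeR adjusted p = 1.84e-05 and 3.46e-05), while KRT18 stood at 92.1% of control and did not pass (edgeR adjusted p = 0.268). The luminal prostate genes KLK3 and KLK2 had no count in any library, and TMPRSS2, another, had 1 to 4 counts per library. Of 5 leukocyte markers PTPRC and CD3E were at 0 in every library and the sum ranged from 2.96 to 4.51 CPM in control and from 2.78 to 3.17 CPM in knockdown libraries. Within that sum 2 markers changed in opposite directions: LYZ, at 2 to 17 counts per library, rose 4.73-fold and CD79A fell to 49.6% of control (edgeR adjusted p = 0.00264 and 0.00994). The sum of 5 fibroblast and endothelial markers ranged from 49.9 to 53.4 CPM in control and from 54.9 to 58.4 CPM in knockdown libraries, most of it from COL1A1 and COL1A2. Of these 5 COL1A2 rose 1.52-fold and PECAM1 fell to 60.1% of control (edgeR adjusted p = 0.000731 and 0.0482), while COL1A1 did not pass. The part of these genes in the results below was not tested.

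The comparison of knockdown with control cells asks which of these genes change when LSD1 is depleted. Of the 10 members 7 passed the filter on low counts, and of these TNFRSF10B rose, TNFRSF10A, FAS, TNFRSF1A and FADD fell, and CASP8 and CFLAR did not pass (edgeR quasi-likelihood test, adjusted p under 0.05 over 13247 genes). Among all genes tested 36.1% passed, 18.2% higher and 17.9% lower, so 1 of 7 higher is near the background and 4 of 7 lower is above it, a difference that was not tested. The median log2 fold change of the 7 was -0.39, against 0.0023 over all genes. The 2 groups were fully separated for 6 of the 7, CASP8 being the exception, where 67.2% of all tested genes are separated. The RNA is a bulk extract, so fewer cells that express a gene and less RNA per cell cannot be told apart.

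**Figure D1:**
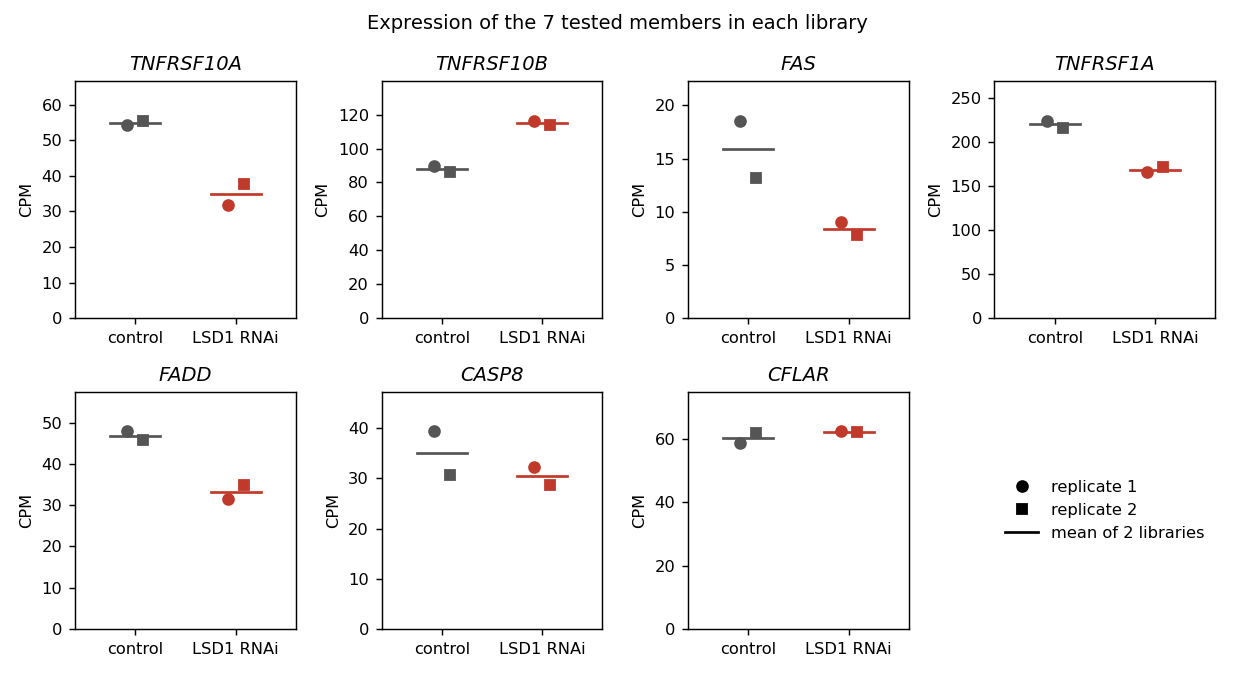
Expression in CPM of the 7 tested members in each library, with circles for replicate 1, squares for replicate 2 and a line at the mean of the 2 libraries of a group. TNFRSF10B sits higher in both knockdown libraries, TNFRSF10A, FAS, TNFRSF1A and FADD sit lower in both, and CASP8 overlaps between groups.

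The 2 death domain receptors of TRAIL moved in opposite directions. TNFRSF10A (NM_003844), which encodes TRAIL receptor 1, had 54.3 and 55.5 CPM in the control libraries and 31.9 and 37.6 CPM in the knockdown libraries. Both knockdown values lie below both control values, and the replicates of the control group are nearly equal. The mean fell from 54.9 ± 0.862 to 34.8 ± 4.04 CPM (SD, n = 2 each), to 63.4% of control, and the log2 fold change was -0.66 ± 0.099 (SE) with a 95% interval from -0.86 to -0.46 (edgeR adjusted p = 3.1e-06). TNFRSF10B (NM_003842), which encodes TRAIL receptor 2, had 89.7 and 86.3 CPM in control libraries and 116.5 and 113.8 CPM in knockdown libraries. The groups are separated by far more than the replicates of either. The mean rose from 88.0 ± 2.42 to 115.2 ± 1.87 CPM (SD, n = 2 each), 1.31-fold, and the log2 fold change was 0.39 ± 0.084 (SE) with an interval from 0.22 to 0.56 (edgeR adjusted p = 0.000436). The intervals of the 2 receptors do not overlap.

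The shift in the balance of the 2 receptors can be read within each library, where no scaling is needed. Counts of TNFRSF10B were 1.65 and 1.55 times those of TNFRSF10A in the control libraries and 3.65 and 3.03 times in the knockdown libraries, so the ratio was 2.08-fold higher after knockdown. This ratio was formed after the values were seen, and its exact permutation p of 0.333 (two-sided) is the smallest that 2 libraries against 2 can give. The summed CPM of the 2 genes moved far less, from 144.0 and 141.8 CPM in control to 148.4 and 151.5 CPM in knockdown libraries. This sum is of reads, and the linked transcript of TNFRSF10B is longer, at 4146 against 2714 nucleotides. In CPM per kilobase the mean went from 21.2 to 27.8 for TNFRSF10B and from 20.2 to 12.8 for TNFRSF10A. The small rise of the sum thus depends on length.

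The TRAIL receptors without a working death domain were at or near the detection limit in every library. TNFRSF10C, whose product is anchored to the membrane by a lipid, had raw counts of 1 and 2 in control and 1 and 2 in knockdown libraries. TNFRSF10D, whose product has a truncated death domain, had 0 and 0 in control and 0 and 3 in knockdown libraries. Neither exceeded the floor of 3 counts in any library, so no fold is given and no change was detectable at this depth. Against 1724 to 1961 raw counts per library for TNFRSF10A and TNFRSF10B together, TNFRSF10C and TNFRSF10D together gave 1 to 5 raw counts. The 4 genes are neighbours on their chromosome, in the order TNFRSF10B, TNFRSF10C, TNFRSF10D, TNFRSF10A with no other coding gene between them. TNFRSF10B, which rose, and TNFRSF10A, which fell, thus stand at the ends of 1 gene cluster, with the 2 nearly silent genes in the middle.

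The ligand gene TNFSF10 was also low. Its row had 5 and 5 counts in control and 0 and 2 counts in knockdown libraries, which is above the floor in both control libraries and below it in both knockdown libraries. It did not pass the filter, and in the fit without a filter the edgeR adjusted p was 0.168. When the 4 transcript rows of TNFSF10 were added together it was called lower (edgeR adjusted p = 0.0166), but 3 of those rows hold identical counts, so that the same reads enter more than once.

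FAS (NM_000043), the receptor for FAS ligand, had the largest fall among the tested members in the full fit. That rank depends on control replicate 1, without which the log2 fold change was -0.68 for TNFRSF10A and -0.65 for FAS. FAS had 18.6 and 13.2 CPM in control libraries and 8.998 and 7.80 CPM in knockdown libraries. The groups do not overlap, but control replicate 1 stood 1.41-fold above control replicate 2. The mean fell from 15.9 ± 3.84 to 8.40 ± 0.847 CPM (SD, n = 2 each), to 52.8% of control, and the log2 fold change was -0.92 ± 0.162 (SE) with an interval from -1.25 to -0.59 (edgeR adjusted p = 3.35e-05). Without control replicate 1 the log2 fold change was -0.65 (edgeR adjusted p = 0.00427). With 1 control library left, the spread within groups comes from the knockdown libraries alone and was pooled fully over all genes. This p thus does not carry the spread of FAS itself in control cells. In the full fit the spread was also pooled in large part, so its p carries little of the spread of FAS itself. FASLG, which encodes the ligand of FAS, had 1 count over the 4 libraries.

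TNFRSF1A (NM_001065), which encodes TNF receptor 1, fell as well. It had 224.8 and 216.3 CPM in control libraries and 165.8 and 171.5 CPM in knockdown libraries, a separation larger than the spread within either group. The mean fell from 220.5 ± 6.03 to 168.6 ± 3.99 CPM (SD, n = 2 each), to 76.5% of control, and the log2 fold change was -0.39 ± 0.080 (SE) (edgeR adjusted p = 0.000268). TNF, which encodes its main ligand, and LTA, which encodes another, had 0 counts in every library, which allows a level of up to 3 counts per library.

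FADD (NM_003824), the adaptor shared by FAS and the TRAIL receptors, also fell. It had 47.9 and 45.8 CPM in control libraries and 31.5 and 35.0 CPM in knockdown libraries, with no overlap. The mean fell from 46.9 ± 1.51 to 33.2 ± 2.47 CPM (SD, n = 2 each), to 71.0% of control, and the log2 fold change was -0.50 ± 0.099 (SE) (edgeR adjusted p = 0.000172).

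The initiator caspase and its inhibitor did not pass. CASP8 (NM_001080125) had 39.4 and 30.8 CPM in control libraries and 32.3 and 28.7 CPM in knockdown libraries. Control replicate 2 lies below knockdown replicate 1, so the groups overlap. The log2 fold change was -0.21 with an interval from -0.44 to 0.03 (edgeR adjusted p = 0.162), which allows a fall to 0.739 times control. The value depends on 1 library: without control replicate 2 CASP8 was called lower, with a log2 fold change of -0.37 (edgeR adjusted p = 0.0183), and without control replicate 1 it was -0.02 (edgeR adjusted p = 0.948). Both fits have 1 control library, which is assumed to vary like the knockdown libraries. CFLAR (NM_003879) had 58.7 and 62.02 CPM in control libraries and 62.4 and 62.2 CPM in knockdown libraries. All 4 values lie within a narrow band, and the log2 fold change was 0.05 with an interval from -0.14 to 0.23 (edgeR adjusted p = 0.72). That interval allows a change between 0.910 and 1.17 times control.

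CASP8 counts were 0.672 and 0.496 times those of CFLAR in control libraries and 0.518 and 0.460 times in knockdown libraries. The first knockdown ratio lies between the control ratios, so the groups overlap. The exact permutation p was 0.667 (two-sided), in a design that cannot reach significance since 0.333 is the smallest p it allows. CFLAR and CASP8 lie on chromosome 2 with CASP10, a caspase related to CASP8, as the only coding gene between them. CASP10 had 60 and 39 counts in control and 57 and 37 counts in knockdown libraries and did not pass (log2 fold change -0.11, edgeR adjusted p = 0.784). None of the 3 neighbouring genes was called.

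**Figure D2:**
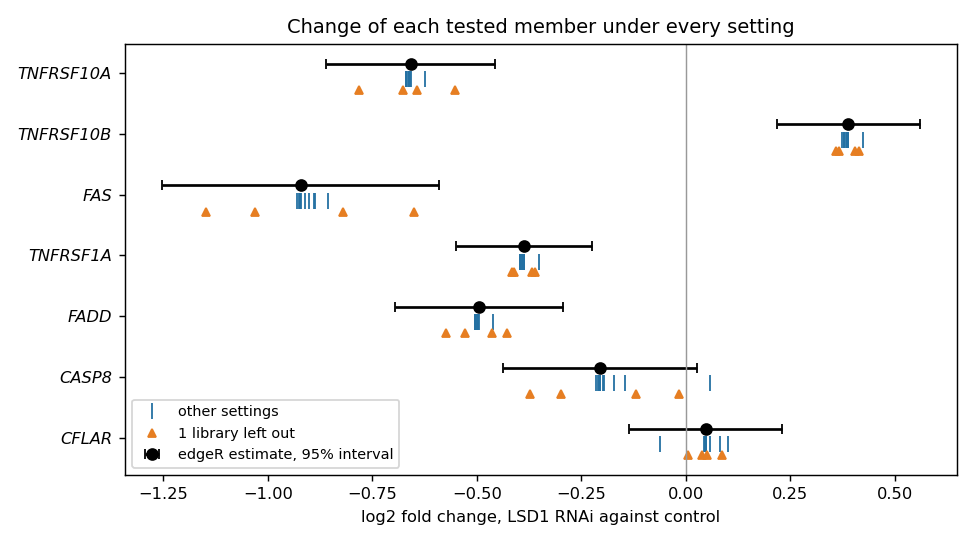
Log2 fold change of each tested member, knockdown against control, with the edgeR estimate and its 95% interval (black), the estimates under other settings (blue ticks) and those with 1 library left out (orange triangles). TNFRSF10A, FAS, TNFRSF1A and FADD stay below 0 and TNFRSF10B above 0 in all, while CASP8 and CFLAR cross 0.

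Levels of different genes can be compared only per transcript length. With the length of the GENCODE transcript linked to each row, in CPM per kilobase (RPKM), the control means were 99.2 for TNFRSF1A, 25.5 for FADD, 21.2 for TNFRSF10B, 20.2 for TNFRSF10A, 11.98 for CASP8 and 6.19 for FAS. TNFRSF10B and TNFRSF10A are close in that order in control, at 20.8 to 21.6 RPKM and 20.01 to 20.5 RPKM per library. After knockdown the per-library RPKM values were 27.5 to 28.1 for TNFRSF10B and 11.8 to 13.9 for TNFRSF10A. The linked transcripts of TNFRSF10B run from 1464 to 4146 nucleotides, and the shortest would raise its control level to at most 61.3 RPKM, so its place between FADD and TNFRSF10A is not settled. The order of CFLAR is not settled, because its linked transcript is 14672 nucleotides long and its shortest 1230, which places its control level anywhere from 3.997 to 50.4 RPKM. With their shortest linked transcripts CASP8 and FAS would reach at most 37.2 and 22.2 RPKM in control, so the middle of the order rests on the length chosen. TNFSF10, TNFRSF10C and TNFRSF10D were at or below 0.254 RPKM in every library. TNFRSF1A had the highest level per length in control whichever of the linked lengths was used for the others.

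The tables count reads per RefSeq transcript, and several members have several rows that share most reads. All 7 FAS rows were called lower, with log2 fold changes from -0.93 to -0.86. The rows NM_000043 and NM_152871 held identical counts in every library, although the coding sequence linked to the second is 63 nucleotides shorter, so these counts do not separate FAS forms. All 3 TNFRSF10B rows were called higher, at 0.37 to 0.38, including NM_147187, whose linked coding sequence is shorter by 87 nucleotides. None of the 6 CASP8 rows was called, and their log2 fold changes ran from -0.22 to 0.06, the highest being NM_033358 with 152 and 109 counts in control and 135 and 145 counts in knockdown libraries. None of the 8 CFLAR rows was called either, from -0.06 to 0.10. The CFLAR row NM_001127184, with 154 to 159 counts per library, stood apart from the other 7, which held 586 to 806. Rows of 1 gene are not independent, and the differences between them were not tested.

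**Figure D3:**
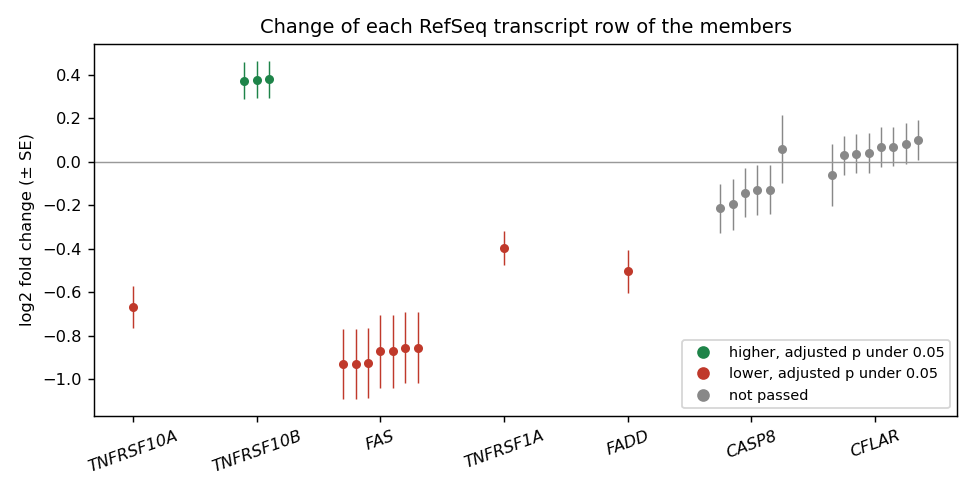
Log2 fold change with its standard error for each RefSeq transcript row of the tested members, from a fit over all rows, coloured by whether the row passed. Rows of 1 gene lie close together, with all FAS rows below 0, all TNFRSF10B rows above 0 and no CASP8 or CFLAR row called.

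Some members share exon sequence with genes on the opposite strand, and no source says that reads were counted by strand, so reads of the partners cannot be told apart there. TNFRSF10B overlaps RHOBTB2 over 67 nucleotides, and RHOBTB2 itself had 401 to 467 counts per library and did not pass (log2 fold change 0.11, edgeR adjusted p = 0.419). FAS overlaps ACTA2 over 380 nucleotides, where ACTA2 had 4 to 12 counts per library against 101 to 231 for FAS. CFLAR overlaps CFLAR-AS1 over 777 nucleotides, where CFLAR-AS1 had 15 to 21 counts per library. CFLAR also overlaps the pseudogene IMPDH1P10 over 1488 nucleotides, for which no counts were matched. TNFRSF10A overlaps TNFRSF10A-AS1 over 224 nucleotides and another opposite-strand transcript over 266 nucleotides. FADD overlaps an antisense transcript over 1011 nucleotides. These partners of TNFRSF10A and FADD were not analysed here.

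Other genes of the pathway, in 8 lists of 82 genes, were measured in the same fit. Of these 67 were tested, 10 rose and 17 fell, or 14.9% and 25.4%, where 18.2% and 17.9% of all genes tested did. The difference from those shares was not tested. The median log2 fold change was -0.10, against 0.0023 over all genes. With 1 library left out the count of rises was lower in every fit, both for these genes and over all genes.

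Receptors and ligands outside the 10 were mostly low. Of 10 other TNF receptor family genes 5 were tested, and TNFRSF21, which encodes death receptor 6, rose by a log2 fold change of 0.24 (edgeR adjusted p = 0.0161) while TNFRSF12A, the receptor for TWEAK, fell by 0.26 on the log2 scale (edgeR adjusted p = 0.0139). TNFRSF21 was called in 9 of 12 other settings and TNFRSF12A in 10. TNFRSF6B, which encodes a soluble decoy for FAS ligand, had 26 and 33 counts in control and 13 and 24 counts in knockdown libraries and did not pass (edgeR adjusted p = 0.0998). Of 9 other ligand genes 3 were tested, and TNFSF9, the ligand of 4-1BB, fell to 60.3% of control (edgeR adjusted p = 5.08e-05).

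Among 12 adaptors, death effector domain genes and regulators of the DISC, all tested, 5 fell and 2 rose, or 41.7% and 16.7%, against 17.9% and 18.2% of all genes. NOL3, whose product binds FADD and caspase-8 and blocks their assembly, fell from 44.6 ± 0.449 to 30.1 ± 0.493 CPM (SD, n = 2 each), to 67.4% of control. PEA15, another inhibitor with a death effector domain, fell by 0.44 on the log2 scale from 223.4 to 164.7 CPM. RIPK1, the kinase at the branch between survival and death below TNF receptor 1, fell by 0.38 on the log2 scale. DEDD, a death effector domain gene, rose by 0.43. CRADD, an adaptor with a death domain, rose by 0.84 at low counts, 11 and 27 in control and 31 and 39 in knockdown libraries, and its edgeR adjusted p was 0.0497. It was called in 6 of 12 other settings. TRADD, the first adaptor of TNF receptor 1, had a log2 fold change of 0.30 and did not pass (edgeR adjusted p = 0.0831).

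In the TNF receptor complex 4 of 22 genes rose and 4 fell, near the share over all genes. MADD, whose product binds the death domain of TNF receptor 1, rose 1.52-fold. Its CPM went from 45.1 ± 5.48 up to 68.6 ± 2.44 (SD, n = 2 each). TRAF3, an adaptor that restrains NF-kappaB signalling, rose 1.28-fold. TRAF2, which brings ubiquitin ligases to the receptor, fell to 67.7% of control, from 45.3 ± 2.34 to 30.7 ± 1.73 CPM (SD, n = 2 each). IKBKG, the regulatory subunit of the IKK kinase, fell to 75.8% of control. The ubiquitin ligase genes BIRC2 and BIRC3 did not pass, with log2 fold changes of -0.22 and 0.42. The 8 NF-kappaB subunit and inhibitor genes held no call, with log2 fold changes from -0.17 to 0.42. None had an unadjusted p under 0.05 in edgeR, and DESeq2 and limma-voom called 0 of them.

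Among genes that act downstream of caspase-8, HTRA2, a mitochondrial protease that binds inhibitor of apoptosis proteins, fell to 82.6% of control. CYCS, which encodes cytochrome c, rose 1.32-fold and XIAP, an inhibitor of caspases, rose 1.18-fold. BID, which links caspase-8 to mitochondria, had a log2 fold change of 0.19 and did not pass (edgeR adjusted p = 0.141). XIAP was called in 7 of 12 other settings, HTRA2 in 8 and CYCS in 11.

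Of the 3 necroptosis genes MLKL, which encodes the pore-forming effector, fell to 67.9% of control, and RIPK3, which encodes the kinase that activates MLKL, and ZBP1 had 0 counts in every library. Among genes for receptor O-glycosylation and for control of TRAIL receptor expression, 6 of 8 were tested. GALNT3, which starts O-linked chains, rose to 150.5% of control, and C1GALT1, which extends them, fell to 59.1% of control, from 36.8 ± 6.15 to 21.8 ± 1.79 CPM (SD, n = 2 each). ATF4, a stress response factor, fell to 81.5% of control. DDIT3, which encodes CHOP, a factor known to act on the TNFRSF10B promoter, had 83.1 ± 16.2 CPM in control and 74.4 ± 3.32 CPM in knockdown libraries (SD, n = 2 each) and did not pass (edgeR adjusted p = 0.227).

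**Figure D4:**
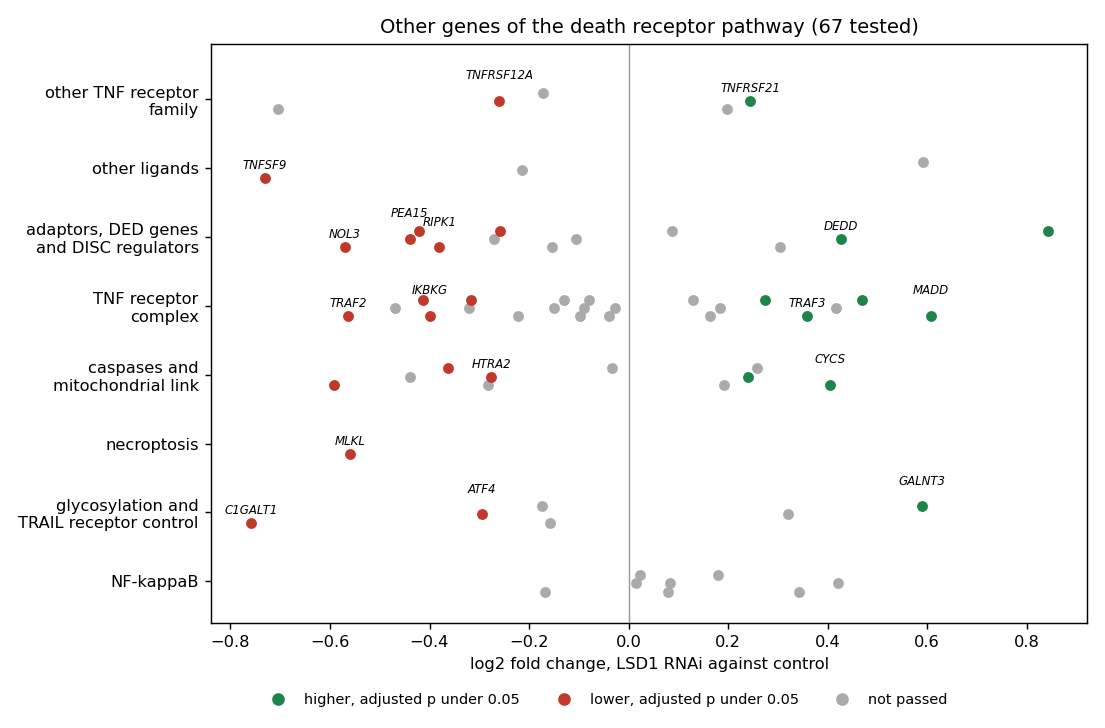
Log2 fold change, knockdown against control, of the 67 tested genes of 8 pathway lists, 1 row per list, coloured by whether the gene passed, with some called genes of each list named. Called genes lie on both sides of 0 in 5 of the 8 lists and the NF-kappaB row has none.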

How the data were processed

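RNA-seq was measured in 4 libraries of PC-3M-luc cells, 2 per group, 1 table each. The deposited values are raw counts per RefSeq transcript, as judged from the values, which are whole numbers with unequal totals. Per the submitters' processing notes, the build is hg19 and the tools include DESeq 1.8.3, edgeR, HOMER and TopHat2, with no role stated for any. How reads were counted, and whether by strand, is not given in the sources used here.

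Of 38767 rows 37677 were matched to 22841 symbols through RefSeq and GENCODE tables, and 1090 unmatched rows, with 1.38% to 1.40% of counts, were left out. The row with the highest mean stood for a gene, since isoform rows repeat reads. Counts were normalized by TMM, filtered with filterByExpr (count 10, total 15), and compared with edgeR 4.0.16 by its quasi-likelihood test (R 4.3.3, limma 3.58.1, DESeq2 1.42.0) with Benjamini-Hochberg adjustment over 13247 genes. The common dispersion was 0.00355. The 95% intervals use the test's standard error. Coordinates are printed only with promoter sequences, since the reference is not hg19. Lengths and overlaps are from GENCODE and may differ from the transcripts counted. The fit was tested on simulated data with known changes, and the outcome is not reported here. Members, lists and tests were chosen with earlier results of these data known. Named genes were the members, KDM1A, up to 4 called genes per pathway list with the smallest adjusted p, and called genes against the majority of a list. Others were named after their values were seen. Some list genes are not reported here. The alternatives tried were other scalings, filters and tests, a replicate block, sums over rows, each transcript row on its own and leaving out each library.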

Additional observations from a re-analysis of the deposited data

How the results depend on the processing

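Among the settings, the lowest and the highest transcript row are the same fit for TNFRSF10A, TNFRSF1A and FADD, which have 1 row each. With these counted apart, TNFRSF10B stayed called higher and TNFRSF10A, FAS, TNFRSF1A and FADD stayed called lower in all 14 other settings each. The largest edgeR adjusted p among them was 0.00808, for TNFRSF10B without control replicate 2. Leaving out 1 library gave log2 fold changes from -0.78 to -0.55 for TNFRSF10A and from -1.15 to -0.65 for FAS. CASP8 reversed to 0.058 and CFLAR to -0.062 in 1 transcript row each, neither called, and the cause was not tested. DESeq2 called 1564 genes higher, against 2413, and the cause was not tested. Pathway genes called higher ranged from 5 to 9 with 1 library left out, where fewer samples entered the fit. With the replicate number as a block, 2632 genes were called higher and 2636 lower, and 1 member was higher and 4 were lower. The replicate numbers are not stated to mark a shared batch, and deviations of same-numbered libraries correlated at 0.0794 across genes. Fits without 1 library compare 1 library with 2 and assume that the lone one varies like the other group. They pool the spread fully over all genes, where the full fit pools it in large part. Their p-values are thus not on the footing of the full fit and do not show stability. TNFRSF10C and TNFRSF10D, at or below the floor of 3 counts, are too low to compare at this depth.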
